A study of Homo sapiens with 11 samples.

Results

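The elements described here are the copies of hAT DNA transposons in the human genome, measured in RNA bound by J2, an antibody that recognises double-stranded RNA. They were taken from the deposited repeat tables by name, as every row whose class begins with DNA/hAT. The rule found 368362 elements among 5622516 repeat elements, which is 6.55% of the rows, in 8 superfamily labels and 154 families. Another 524 rows carry the class DNA?/hAT, with a question mark after DNA, and lie outside the rule.

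The cells were HCT116, an established human colorectal cancer line. In 1 J2 library they had received siLuc, a control siRNA against luciferase, and the solvent DMSO. In a further library they had received siLuc and DAC (decitabine, an inhibitor of DNA methyltransferases, given at 500 nM), and in the last siStau1, an siRNA against the double-stranded RNA binding protein Staufen1, and DAC. Every library was taken at day 5 per the labels. The series has no J2 library with siStau1 and DMSO, so the siStau1 library differs from siLuc DMSO in both siRNA and drug. With 1 J2 library per group there is no measure of the spread between cultures. No difference below has a test, and every interval covers counting error only.

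Several limits apply to all values. The protocol text that all samples share names an antibody against Staufen1, while the titles of the enriched libraries name J2, so the antibody is uncertain. The headers of the repeat tables give conditions and not the assay, and the tables were assigned to the J2 libraries because they hold exactly the 3 conditions of those libraries. The tables give no length, position or sequence of an element, so no level per length could be computed and no sequence is printed. In total RNA, 4 groups of 2 libraries each, the authors' deposited table lists STAU1 at 35.5 FPKM (expression per transcript length and library size) with siLuc and DMSO, 33.7 with siLuc and DAC, 30.0 with siStau1 and DMSO and 27.1 with siStau1 and DAC. The authors' deposited table calls STAU1 changed by siStau1 neither in DMSO (q = 0.767) nor in DAC (q = 0.685). The same deposited table by the authors lists the epithelial genes EPCAM at 259 and KRT8 at 1103 FPKM in siLuc DMSO, with CDH1, KRT18 and KRT19 also above 10. The intestinal genes VIL1 and LGALS4 stood at 0.0288 and 0 FPKM in siLuc DMSO in the authors' deposited table. Of 4 markers of other cell types, the authors' deposited table lists PTPRC, COL1A2 and PECAM1 at 0 and COL1A1 at 1.59 FPKM in that group. These levels were higher with DAC: the authors' deposited table lists PECAM1 at 0.633 FPKM with siLuc and DAC (q = 0.00162), COL1A2 at 0.50, PTPRC at 0.174 and COL1A1 at 8.60 (q = 0.0587). With siStau1 the authors' deposited table lists PTPRC at 0 with DMSO and 0.820 with DAC (q = 0.00162), COL1A1 at 0.826 and 5.65 (q = 0.0201), PECAM1 at 0.00618 and 0.777 (q = 0.568) and COL1A2 at 0 and 0.242. With siLuc and DAC the authors' deposited table lists EPCAM lower, at 117 FPKM (q = 0.0157), and LGALS4 higher, at 1.5 (q = 0.00293). The other epithelial genes were higher there: the authors' deposited table lists KRT19 at 1419 FPKM against 537 in siLuc DMSO (q = 0.00162). It also lists KRT8 at 3159 (q = 0.196), KRT18 at 3469 against 681 (q = 0.0773) and CDH1 at 26.5 against 14.3 (q = 0.0862). The part of these differences in the J2 values was not tested.

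hAT elements are cut-and-paste transposons named after hobo of the fruit fly, Ac of maize and Tam3 of the snapdragon. An autonomous copy encodes a transposase and ends in short inverted repeats, which the transposase recognises when it excises the element. The human genome holds remnants of autonomous elements, among them Charlie1, Cheshire, BLACKJACK, Zaphod and Arthur1, and a much larger number of short non-autonomous relatives such as MER5A, MER20 and MER3 that were moved by a transposase encoded elsewhere. None of these elements is known to be mobile in humans today. Many copies lie in introns and untranslated regions of genes, where they are transcribed as part of the host transcript.

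hAT elements took a larger share of the J2 reads in both DAC libraries than in the siLuc DMSO library. They held 1046367 of 71473124 reads on repeats in siLuc DMSO, which is 1.464% (95% Wilson interval 1.461% to 1.467%). Under siLuc DAC they held 1547024 of 68944777 reads, or 2.244% (2.240% to 2.247%). Under siStau1 DAC they held 1707783 of 83037330 reads, or 2.057% (2.054% to 2.060%). Scaled to the reads on all repeats, the siLuc DAC library therefore stood 1.53-fold and the siStau1 DAC library 1.40-fold above siLuc DMSO, and siStau1 DAC stood at 0.917 of siLuc DAC. Even counts outnumbered odd ones, since 24215 hAT elements held 2, 4 or 6 reads in siLuc DMSO and 12971 held 1, 3 or 5. The intervals treat reads as independent, and are too narrow if both mates of a fragment were counted.

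The share of Alu, an abundant short interspersed element, moved in the opposite direction. Alu elements held 57.5% of the repeat reads in siLuc DMSO, 46.8% under siLuc DAC and 54.0% under siStau1 DAC. Outside Alu the hAT share was 3.44% in siLuc DMSO, 4.22% under siLuc DAC and 4.47% under siStau1 DAC. Against the reads on LINE, LTR, MIR and DNA elements alone, a denominator chosen after the data were seen, it was 8.37%, 9.09% and 9.05% in the same order. hAT was thus above siLuc DMSO in both DAC libraries with each of these denominators, while the order of the DAC libraries changed between them. Every log2 ratio of summed reads given below was scaled to all repeats. With repeats outside Alu as denominator it shifts by -0.32 for siLuc DAC over siLuc DMSO, -0.11 for siStau1 DAC over siLuc DMSO and 0.21 for siStau1 DAC over siLuc DAC, and with LINE, LTR, MIR and DNA elements by -0.50, -0.38 and 0.12. With DNA transposons alone it shifts by -0.77, -0.56 and 0.21. Among DNA transposons the hAT share went the other way, at 78.5% in siLuc DMSO, 70.5% under siLuc DAC and 74.6% under siStau1 DAC. The Tc1-mariner elements, the other large group of human DNA transposons (Tigger and related families), went from 0.375% of repeat reads in siLuc DMSO to 0.880% under siLuc DAC and 0.657% under siStau1 DAC. Elements of the rRNA class took 1.01%, 3.0% and 1.57% of the reads in the same library order, and their part in the shares was not tested.

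**Figure D1:**
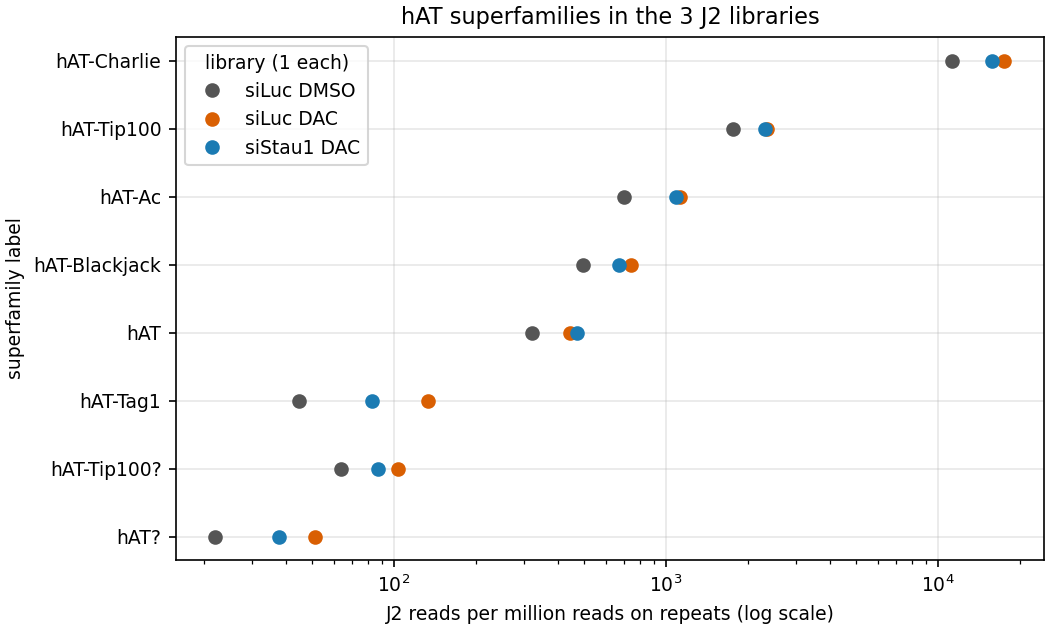
Reads scaled to all repeat reads (RPM, horizontal log axis) for the 8 hAT superfamily labels in the 3 J2 libraries, 1 library per group, so that each point is a single value with no error bar. On this scale each superfamily lies further right under siLuc DAC than under siLuc DMSO (hAT-Tip100 and hAT do not when scaled to LINE, LTR, MIR and DNA elements, and only hAT-Tag1 and hAT? do when scaled to DNA transposons), with the widest gap in hAT-Tag1, a log2 ratio of 1.58.

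Each of the 8 superfamilies took a larger share of all repeat reads in both DAC libraries than under siLuc DMSO. hAT-Charlie, the superfamily to which MER5A, MER20 and the Charlie families belong, had 271698 elements and held 802435 reads in siLuc DMSO, 1205744 under siLuc DAC and 1313092 under siStau1 DAC. It supplied 76.7% to 77.9% of all hAT reads in each library. Its summed reads were higher by 0.64 on the log2 scale for siLuc DAC over siLuc DMSO and by 0.49 for siStau1 DAC over siLuc DMSO. hAT-Tip100, named after an element of the morning glory, had 54711 elements with 126073, 162177 and 191837 reads in the same order. Its log2 ratios were smaller, at 0.42 and 0.39. The siLuc DAC value changed sign, to -0.082, when reads were scaled to LINE, LTR, MIR and DNA elements, as did that of the elements labelled only hAT (to -0.034). The other superfamily ratios over siLuc DMSO kept their sign when scaled to repeats outside Alu or to LINE, LTR, MIR and DNA elements. Scaled to DNA transposons, most of whose reads are hAT reads, only hAT-Tag1 and hAT? stayed above siLuc DMSO in both DAC libraries (0.81 and 0.33 for hAT-Tag1, 0.45 and 0.22 for hAT?), hAT-Ac did so under siStau1 DAC (0.072), and hAT-Charlie lay at -0.13 and -0.069.

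The smaller superfamilies spread more widely. hAT-Ac, related to the maize element, held 50226 reads in siLuc DMSO, 77345 under siLuc DAC and 90584 under siStau1 DAC, in 5742 elements. Most of them came from the single family OldhAT1. hAT-Blackjack held 35308, 51302 and 55852 reads over 20140 elements, and its log2 ratio was 0.59 under siLuc DAC and 0.45 for siStau1 DAC over siLuc DMSO. Elements labelled only hAT held 22975, 30554 and 39101 reads over 9155 elements. Theirs was the 1 superfamily sum that was higher under siStau1 DAC than under siLuc DAC, by 0.088 on the log2 scale. Without their 10 strongest elements the value was -0.036, and with the authors' factors -0.23. Scaled to repeats outside Alu, hAT-Charlie, hAT-Tip100, hAT-Blackjack and hAT-Ac were higher under siStau1 DAC as well, by 0.064, 0.18, 0.063 and 0.17, and nearly the same values were found scaled to DNA transposons.

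hAT-Tag1, named after an element of thale cress, had the highest superfamily ratio. Its 2403 elements held 3206 reads in siLuc DMSO, 9230 under siLuc DAC and 6914 under siStau1 DAC. The log2 ratio of these sums was 1.58 under siLuc DAC and 0.89 for siStau1 DAC over siLuc DMSO, and -0.69 between siStau1 DAC and siLuc DAC. The difference showed in many copies, since 13.1% of the hAT-Tag1 elements had a read in siLuc DMSO, 29.7% under siLuc DAC and 20.9% under siStau1 DAC. The elements of doubtful assignment, labelled hAT? (2076 elements) and hAT-Tip100? (2437 elements), had log2 ratios of 1.22 and 0.70 for siLuc DAC over siLuc DMSO. With only 1578 and 4566 reads in siLuc DMSO they add little to the hAT total.

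At the level of single elements, most hAT copies gave no reads. In all, 261254 elements (70.9%) had no read in any library and 40825 (11.1%) had a read in all 3. The share of hAT elements with a read was 16.6% in siLuc DMSO, 21.3% under siLuc DAC and 20.5% under siStau1 DAC. Over all repeats outside Alu the same shares were 15.4%, 19.1% and 18.7%. A copy without a read cannot be told apart from one whose reads were assigned elsewhere or could not be placed.

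Ratios of single elements were taken where the libraries of a pair held at least 20 reads together, after 0.5 reads were added to each and reads were scaled to all repeats. For siLuc DAC over siLuc DMSO this left 22905 hAT elements (6.22%), with a median log2 ratio of 0.72 (quartiles -0.057 and 1.66). Of them 9552 (41.7%) lay more than 2-fold higher and 1702 (7.43%) more than 2-fold lower under siLuc DAC. Over all repeat elements compared in this pair 21.3% lay beyond 2-fold up and 17.0% beyond 2-fold down, a background in which Alu elements are the majority. Against the 261668 repeat elements outside Alu the hAT values were close, since there the median was 0.65, with 39.8% beyond 2-fold up and 9.71% beyond 2-fold down. The median was 1.52 for Tc1-mariner, 0.75 for L2, 0.46 for MIR and -0.32 for Alu elements.

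hAT elements again lay between Alu and Tc1-mariner elements for siStau1 DAC over siLuc DMSO, a comparison that shares its DMSO library with the one above. The median of 22389 hAT elements was 0.49, with 6708 (30.0%) beyond 2-fold up and 982 (4.39%) beyond 2-fold down, against 14.5% and 8.27% over all repeat elements. Repeats outside Alu had a median of 0.40, L2 0.45, MIR 0.38 and Tc1-mariner 0.91. Between the DAC libraries the hAT median was -0.18 for siStau1 DAC over siLuc DAC (26936 elements), with 3329 (12.4%) beyond 2-fold up and 5874 (21.8%) beyond 2-fold down. Over all repeat elements 15.5% were beyond 2-fold up and 14.8% down in that pair. Repeats outside Alu again lay close to hAT, with a median of -0.20. Scaled to reads outside Alu the hAT median between the DAC libraries was 0.024, so its sign depends on the denominator.

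**Figure D2:**
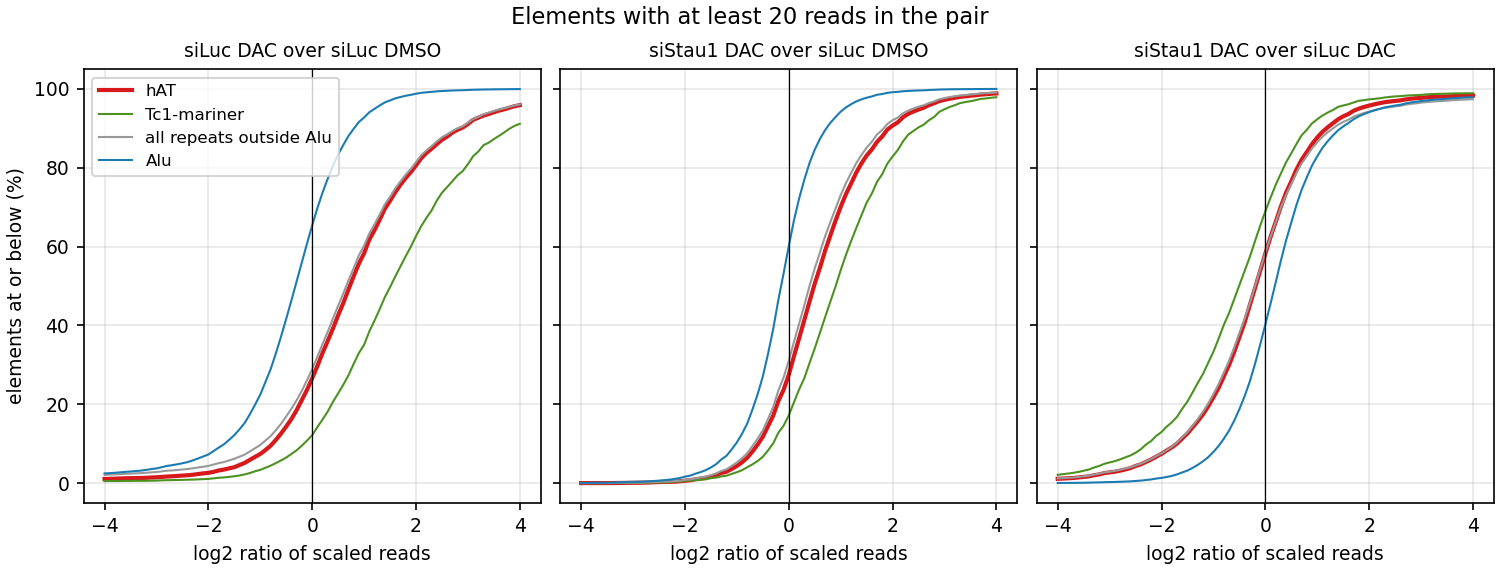
Cumulative share of elements (vertical axis, percent) against the log2 ratio of reads between J2 libraries (horizontal axis), for hAT, Tc1-mariner, Alu and all repeats outside Alu, with at least 20 reads in the pair. The hAT curve runs beside that of all repeats outside Alu in each pair, with medians of 0.72 and 0.65 for siLuc DAC over siLuc DMSO, and at its median lies between the Alu and Tc1-mariner curves.

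The size of the ratio followed the number of reads. For siLuc DAC over siLuc DMSO the median log2 ratio was 0.92 in hAT elements with 20 to 49 reads in the pair and 0.64 with 50 to 99 reads. It was 0.48 with 100 or more but under 500 reads and 0.37 in the 514 elements with 500 or more. Between siStau1 DAC and siLuc DAC the medians in the same order were -0.27, -0.19, -0.09 and 0.05. Over all repeat elements, where Alu elements are the majority, the medians moved in the same direction with reads. They were 0.18, 0.018, -0.11 and -0.18 for siLuc DAC over siLuc DMSO. For siStau1 DAC over siLuc DAC they were -0.054, -0.0018, 0.078 and 0.14. Strata were not made for repeats outside Alu, so whether the trend was particular to hAT was not tested. The strata are given again below where groups of families are compared.

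Among the 154 families, the reads were concentrated in a few short non-autonomous ones. The 10 families with most reads hold 37.7% of the hAT elements and took 59.5% of the hAT reads in siLuc DMSO, 54.1% under siLuc DAC and 57.2% under siStau1 DAC. They are MER5A, MER20, MER5B, MER1B, OldhAT1, MER5A1, MER58A, MER1A, MER3 and Charlie4z. Since copy number and length differ between families and lengths are not given, their order by reads is not an order of expression per length. Every family had a read in each library.

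MER5A, a short non-autonomous Charlie relative with 35585 copies, held 127121 reads in siLuc DMSO, 179693 under siLuc DAC and 206592 under siStau1 DAC. Its log2 ratios over siLuc DMSO were 0.55 and 0.48, close to those of hAT-Charlie as a whole. MER20, which has been studied for its copies near genes of the endometrium, held 108124, 140801 and 165415 reads, with ratios of 0.43 and 0.40. MER5B held 84450, 113348 and 134846 reads, with ratios of 0.48 and 0.46. In these families no single copy took more than 3.59% of the reads.

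MER1B and MER1A, short non-autonomous families of hAT-Charlie, stood out in a different way. MER1B makes up 1.5% of the hAT elements but held 8.66% of the hAT reads in siLuc DMSO. Its reads were 90654 in siLuc DMSO, 89979 under siLuc DAC and 118089 under siStau1 DAC, so that its log2 ratio over siLuc DMSO was only 0.041 with siLuc and 0.17 with siStau1. More of its copies had a read in siLuc DMSO (42.1%) than under siLuc DAC (36.7%), the opposite of the hAT total, and 43.1% had one under siStau1 DAC. MER1A had the same pattern, with 35.5%, 31.0% and 37.2% of copies detected and log2 ratios of 0.29 and 0.27 over siLuc DMSO. When reads were scaled to repeats outside Alu, which lowers every log2 ratio of siLuc DAC over siLuc DMSO by the same 0.32, both families lay below siLuc DMSO in that pair.

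**Figure D3:**
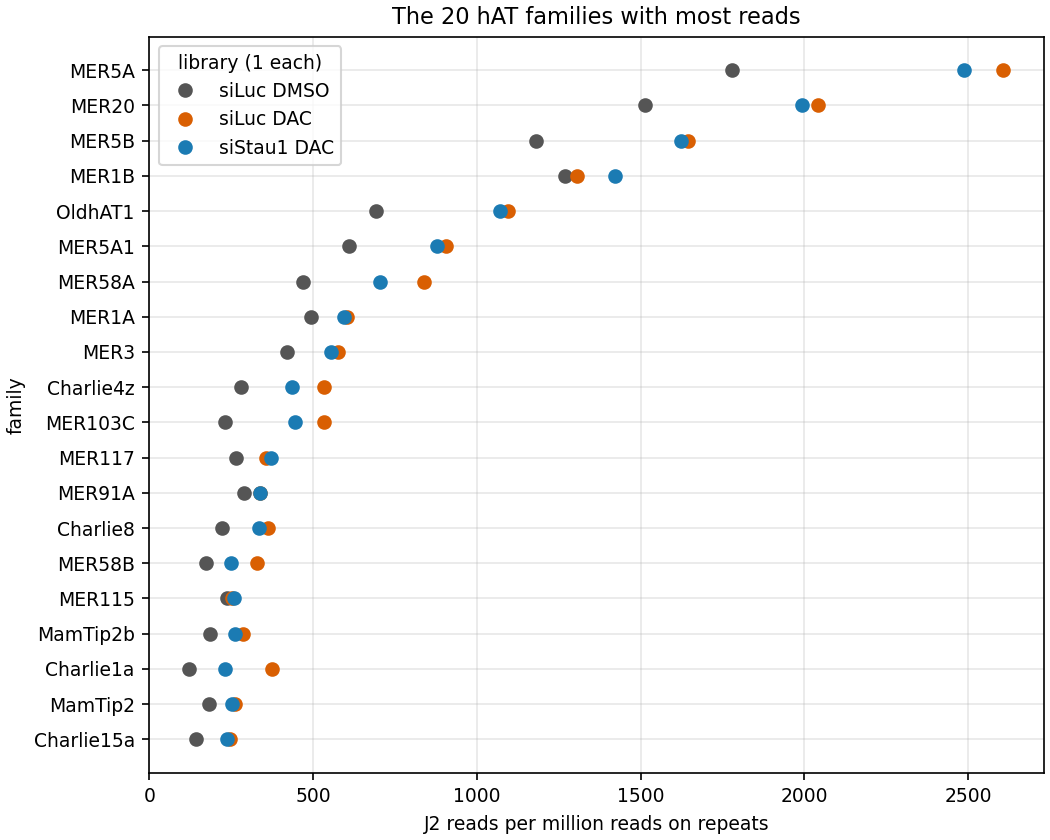
Reads scaled to all repeat reads (RPM, linear axis from 0) of the 20 hAT families with most reads, in the 3 J2 libraries with 1 library per group and no error bar. MER5A leads in each library, the siLuc DMSO point lies furthest left in each of the top 10 families on this scale (5 of them change sides between siLuc DMSO and siLuc DAC when scaled to LINE, LTR, MIR and DNA elements, and all but MER58A and Charlie4z when scaled to DNA transposons), and the MER1B points of the siLuc libraries lie close together, with a log2 ratio of 0.041 between siLuc DAC and siLuc DMSO.

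OldhAT1, an old family of the Ac superfamily, held 49449 reads in siLuc DMSO, 75424 under siLuc DAC and 88939 under siStau1 DAC, in 4404 elements. A single copy supplied 22.2%, 23.8% and 24.4% of these reads, with 10966, 17931 and 21720 reads, and was the hAT element with most reads in every library. A second OldhAT1 copy, with 4226, 7023 and 7102 reads, was among the top 3 in each library as well. MER3, a short Charlie relative, rested in part on 1 copy, in some libraries only. That copy held 6948 reads in siLuc DMSO, 1995 under siLuc DAC and 9099 under siStau1 DAC, which is 23.1%, 5.02% and 19.8% of the MER3 reads. Its log2 ratio of -1.75 for siLuc DAC over siLuc DMSO ran against that of the MER3 family, 0.45. Over the 3 libraries together, the strongest copy held over 50% of the scaled reads in 11 families and under 10% in 65.

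MER58A, a short Charlie relative, held 33483 reads in siLuc DMSO, 57842 under siLuc DAC and 58571 under siStau1 DAC, with ratios of 0.84 and 0.59. Charlie4z, the 1 family of the 10 with a Charlie name, had the largest ratios among them. It held 20038, 36793 and 36154 reads, with log2 values of 0.93 and 0.64 over siLuc DMSO. Its strongest copy held 876, 4493 and 1955 of these reads, and that of MER58A held 2722, 2128 and 5332. The order of Charlie4z and MER58A under siLuc DAC rests in part on these copies. MER5A1, a subfamily of MER5A, held 43528, 62414 and 72934 reads (0.57 and 0.53). Of the 10 families with most reads, MER20, MER5B, MER1B, MER1A and MER3 have log2 ratios for siLuc DAC over siLuc DMSO under the 0.50 by which scaling to LINE, LTR, MIR and DNA elements lowers them, so their direction rests on the denominator. The other 5 stay above siLuc DMSO with that denominator, and only MER58A and Charlie4z do so scaled to DNA transposons.

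The family with most reads in each remaining superfamily was as follows. In hAT-Tip100 it was MER91A, with 20617 reads in siLuc DMSO, 23246 under siLuc DAC and 27968 under siStau1 DAC, and its ratios of 0.22 and 0.22 over siLuc DMSO were below those of the superfamily. In hAT-Blackjack it was MER81 with 11974, 14443 and 17255 reads (0.32 and 0.31), and among elements labelled only hAT it was MER53 with 9986, 13386 and 16401 (0.47 and 0.50). hAT-Tag1 was led by hAT-1_Mam with 2695, 5980 and 5144 reads (1.20 and 0.72), of which 1 copy gave 19.6% in siLuc DMSO. The doubtful labels hAT-Tip100? and hAT? were led by MamRep1879 with 3868, 5268 and 5858 reads (0.50 and 0.38) and by UCON105 with 828, 1560 and 1478 (0.97 and 0.62).

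Across families with at least 100 reads in a pair, 144 of 148 were higher under siLuc DAC than under siLuc DMSO. Of these, 71 were more than 2-fold higher, and 0 families were more than 2-fold lower. The median family log2 ratio was 0.98. Scaled to LINE, LTR, MIR and DNA elements 122 of the 148 stayed above 0, and scaled to repeats outside Alu 135. For siStau1 DAC over siLuc DMSO 148 of 149 were higher, 19 of them more than 2-fold, with a median of 0.65. For siStau1 DAC over siLuc DAC 23 of 150 were higher and 5 were more than 2-fold lower, with a median of -0.31. That count went to 63 scaled to repeats outside Alu and to 50 scaled to LINE, LTR, MIR and DNA elements. The same counts were not made for families of other repeat classes. Of single elements, 73.4% of hAT and 71.0% of repeats outside Alu were higher for siLuc DAC over siLuc DMSO. These shares were 72.5% and 69.0% for siStau1 DAC over siLuc DMSO, and 41.8% and 41.6% for siStau1 DAC over siLuc DAC. Families are not replicates, since they share libraries and their copies may share host transcripts, and the comparisons over siLuc DMSO share the siLuc DMSO library.

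**Figure D4:**
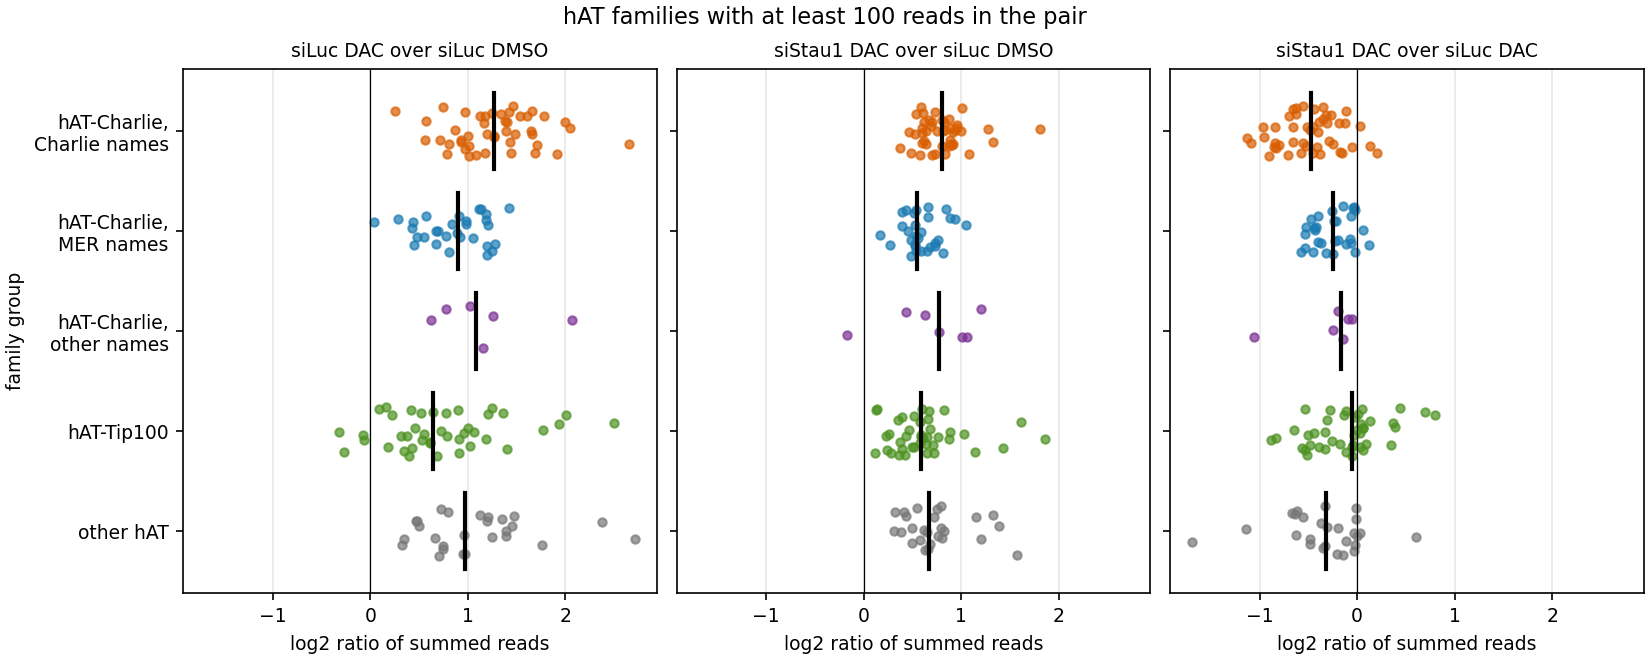
Log2 ratio of summed reads for each hAT family with at least 100 reads in the pair, grouped as hAT-Charlie families with Charlie, MER or other names, hAT-Tip100 and all other hAT, for the 3 pairs of J2 libraries scaled to reads on all repeats. Points are families, spread vertically for display, and black bars are medians. Nearly all points lie above 0 in the pairs with siLuc DMSO (144 of 148 and 148 of 149), and most lie below 0 between the DAC libraries, where 23 of 150 are above. Families of other repeat classes were not counted.

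The families with the highest ratios for siLuc DAC over siLuc DMSO were small. hAT-5_Mam, of the Tag1 superfamily, held 511 reads in siLuc DMSO, 3250 under siLuc DAC and 1770 under siStau1 DAC, a log2 ratio of 2.72 and 1.57 over siLuc DMSO. Detected copies of hAT-5_Mam went from 9.67% in siLuc DMSO to 29.2% under siLuc DAC and 19.5% under siStau1 DAC, and 1 copy held 24.5% to 36.2% of the reads. Charlie7b_Mars held 53, 324 and 218 reads, of which 73.8% to 90.4% came from 1 copy. Zaphod5a, named after the autonomous Zaphod of the Tip100 superfamily, held 21, 117 and 90 reads in 80 copies. These last 2 families rest on few reads, and MER97a, among the 3 highest for siStau1 DAC over siLuc DMSO, does too (48, 188 and 172 reads).

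Among families with at least 100 reads in the pair, the 4 not higher under siLuc DAC than under siLuc DMSO all belong to hAT-Tip100. Reads were scaled to all repeats. Arthur1C, a relative of the autonomous Arthur1, held 1293 reads in siLuc DMSO, 999 under siLuc DAC and 1947 under siStau1 DAC, with log2 ratios of -0.32 and 0.37 over siLuc DMSO. One copy held 551, 5 and 848 of these reads (42.6%, 0.501% and 43.6%), and the copy that led under siLuc DAC held 362, 447 and 578. The first copy was thus nearly without reads under siLuc DAC. MER96 held 6531, 5213 and 8222 reads (-0.27 and 0.12). Copies of it with 352, 345 and 323 reads in siLuc DMSO held 0, 1 and 0 under siLuc DAC. FordPrefect_a held 815, 748 and 1220 reads (-0.072 and 0.37), of which 1 copy held 147, 10 and 228. The last of the 4, EuthAT-N1, was named after its values were seen and held 236, 217 and 332 reads. Of these 1 copy held 172, 81 and 167. The ratios of the 4 families for siLuc DAC over siLuc DMSO thus rested in part on few copies. Each of these 4 was above siLuc DMSO in the siStau1 DAC library. Of families with at least 100 reads for siStau1 DAC over siLuc DMSO, only hAT-16_Crp of hAT-Charlie was lower (-0.17). It held 58, 36 and 60 reads in 23 copies. Under siLuc DAC it was below siLuc DMSO as well (-0.63), but its 94 reads in that pair were under the minimum. MER115, with 16993, 17479 and 21545 reads, was nearly level in both pairs, at 0.093 and 0.13.

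Between the DAC libraries, the families lowest under siStau1 DAC were UCON23, hAT-5_Mam and Charlie25. UCON23 held 98 reads in siLuc DMSO, 494 under siLuc DAC and 183 under siStau1 DAC. The leading copy among its 31 was not the same in each library: 1 copy held 25, 309 and 48 of the reads and another 53, 104 and 112. Charlie25 held 453, 1750 and 965 reads, a log2 ratio of -1.13 for siStau1 DAC over siLuc DAC, and it had 7.68%, 16.0% and 12.6% of its 1094 copies detected. The families highest under siStau1 DAC were MamTip1b, Arthur1C and UCON73. MamTip1b held 683, 835 and 1752 reads and UCON73 held 2427, 3862 and 7066, and 1 copy supplied 40.5% to 64.9% and 83.3% to 91.4% of their reads. The UCON73 copy held 2102, 3218 and 6461 reads, and the next row of the table, an LTR element of the THE1A family, held 922, 1923 and 3059.

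Within hAT-Charlie, families with Charlie names differed from those with MER names for siLuc DAC over siLuc DMSO. The Charlie-named families include the transposase-coding Charlie elements and their internally deleted derivatives, while MER is an older naming series for medium reiterated repeats and covers mostly short non-autonomous elements. The 46 Charlie-named families, with 70834 elements, held 117274 reads in siLuc DMSO, 241474 under siLuc DAC and 223459 under siStau1 DAC. The 30 MER-named families, with 197288 elements, held 679663, 951812 and 1078152 reads. The median element log2 ratio was 1.24 against 0.66 for siLuc DAC over siLuc DMSO, 0.73 against 0.46 for siStau1 DAC over siLuc DMSO, and -0.40 against -0.15 between the DAC libraries.

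For siLuc DAC over siLuc DMSO the contrast between the names was also present between families and within read strata. Of 45 Charlie-named families with enough reads, 32 were more than 2-fold higher under siLuc DAC, with a median log2 ratio of 1.26 and a range of 0.26 to 2.65. Of the 30 MER-named families 11 were more than 2-fold higher, with a median of 0.90 and a range of 0.041 to 1.43, so the ranges overlapped. In elements with 20 to 49 reads the median was 1.54 for Charlie names and 0.84 for MER names, with 50 to 99 reads 1.11 and 0.58, with 100 or more but under 500 reads 0.80 and 0.42, and with 500 or more 0.76 and 0.31. Between the DAC libraries the medians were -0.62 and -0.27 with 20 to 49 reads, but 0.074 for Charlie names and 0.028 for MER names with 500 or more (91 and 453 elements), so that contrast was not present among the strongest elements. A change of denominator shifts both names by the same amount and leaves these gaps as they are. Detected copies went from 13.5% to 22.0% between siLuc DMSO and siLuc DAC for Charlie names and from 18.9% to 23.1% for MER names. Whether length, age or the host transcripts of the copies differ between the names could not be read from the tables, and their part in the contrast was not tested.

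The families of this paragraph, named for autonomous elements or a derivative, were chosen after their values were seen. In each of them the ratio over siLuc DMSO was lower under siStau1 DAC than under siLuc DAC. Not every such family had this order. Of 46 Charlie-named families 3, Charlie3 among them, were higher under siStau1 DAC than under siLuc DAC. Cheshire, an autonomous element of the Charlie group, held 926 reads in siLuc DMSO, 3743 under siLuc DAC and 2167 under siStau1 DAC, log2 ratios of 2.07 and 1.01 over siLuc DMSO. Charlie1 held 2622, 7351 and 5710 reads (1.54 and 0.91) and its derivative Charlie1a 8583, 25894 and 19069 (1.64 and 0.94). BLACKJACK held 1127, 3029 and 2290 reads (1.48 and 0.81), while the 7 MER-named families of its superfamily ranged from 0.32 to 0.97 for siLuc DAC over siLuc DMSO. In the Tip100 superfamily Arthur1 held 1256, 2793 and 2468 reads (1.20 and 0.76) and Zaphod 1284, 2314 and 2249 (0.90 and 0.59). The median over elements of that superfamily for siLuc DAC over siLuc DMSO was 0.89 for all Arthur names and 0.82 for Zaphod names. It was 0.61 for MamTip names and 0.29 for MER names. FordPrefect names (0.11, 68 elements) and EuthAT-N names (0.18, 8 elements) lay below MER names. Above them lay ORSL (0.79) and MamRep names (0.67), and MARE (2.68), hAT (2.90) and hAT-N names (1.08) with 14, 4 and 20 elements.

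No single copy dominated the hAT reads, but most of them came from a small part of the copies. The strongest copy held 1.05% in siLuc DMSO, 1.16% under siLuc DAC and 1.27% under siStau1 DAC. In siLuc DMSO 2794 elements held 50% of the hAT reads, under siLuc DAC 3992 and under siStau1 DAC 3128. The 1000 strongest copies of each library, 0.271% of the hAT elements, held 33.9%, 29.3% and 32.9% of the hAT reads. The 10000 strongest, 2.71% of the elements, held 74.7%, 67.8% and 71.8%. Of the 100 strongest, 62 were the same in all 3 libraries. The MER5A copy with 3232 reads in siLuc DMSO, 6451 under siLuc DAC and 6925 under siStau1 DAC was the third strongest under siLuc DAC. The row next to it, a Tigger16b element of the Tc1-mariner group, held 1359, 4177 and 4613 reads. The strongest Charlie4z copy held 876, 4493 and 1955 reads, and lay in the table between an L2a row with 1946, 10108 and 4215 reads and an AluSx1 row with 8346, 11061 and 9416.

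Strong hAT elements had strong neighbours in the table. The meaning of the row order is not stated in the sources used here, so adjacency in the table is used as it stands. Of the rows next to hAT elements without a read, 4.11% held at least 20 reads over the 3 libraries. This share was 16.6% beside elements with 1 to 4 reads, 55.5% with 20 to 99 reads, 77.4% with 100 or more but under 1000 reads and 86.2% beside the 373 elements with 1000 or more. The share of hAT elements with an Alu in an adjacent row went from 31.9% to 57.6% over the same range.

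The ratios of neighbours moved together as well. Over 14787 pairs of a hAT element and a non-Alu row directly beside it, the rank correlation of their log2 ratios for siLuc DAC over siLuc DMSO was 0.504. It was 0.283 at 100 rows apart and 0.045 at 1000 rows apart. For siStau1 DAC over siLuc DAC it was 0.444 (18311 pairs), and 0.259 and -0.008 at those distances. It was lowest at 1 row apart for siStau1 DAC over siLuc DMSO, at 0.229 (14195 pairs). Such pairs share their libraries and may share 1 transcript, so the correlations are given as a description without a test.

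**Figure D5:**
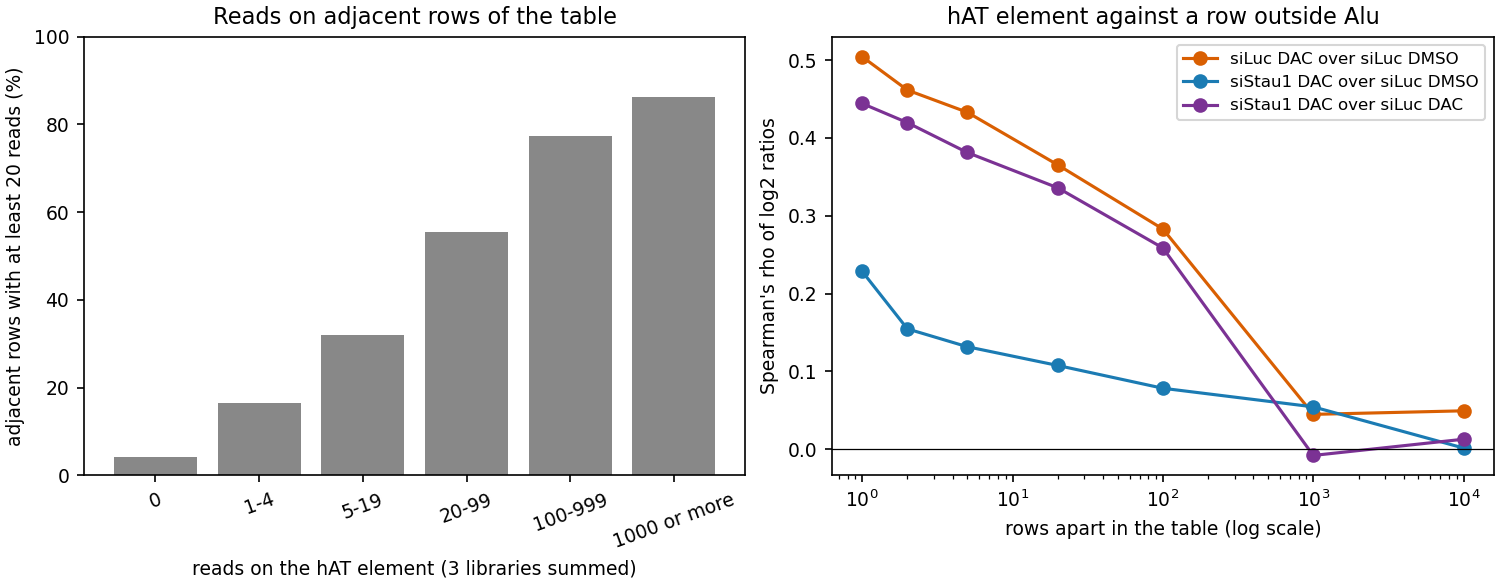
Left, the share of rows adjacent to a hAT element that held at least 20 reads (bars, percent), by the reads of the hAT element over the 3 libraries. Right, rank correlation (vertical axis) between the log2 ratio of a hAT element and that of a non-Alu row a given number of rows away in the table (horizontal axis, log scale), for the 3 pairs of J2 libraries. The share goes from 4.11% to 86.2%. For siLuc DAC over siLuc DMSO the correlation declines from 0.504 at 1 row to 0.045 at 1000 rows, and the siStau1 DAC over siLuc DMSO curve lies lowest at short distance.

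Some hAT elements had no read in 1 library while the others held many. Of 9467 hAT elements with at least 20 reads in both siLuc DMSO and siStau1 DAC, 173 (1.83%) had 0 reads under siLuc DAC. The share was 2.15% of all repeat elements and 2.94% of those outside Alu. In siLuc DMSO the number was 68 of 11814 hAT elements (0.576%). There the share was 0.202% of all repeat elements, but 0.495% outside Alu and 0.576% of L2 elements. Under siStau1 DAC it was 0 of 8566 hAT elements, where all repeat elements had 13. The siLuc DAC gaps came in runs. Of 131 rows that lay next to them and had at least 20 reads in both other libraries, 96 (73.3%) were also at 0 under siLuc DAC, against 1.30% beside all hAT elements of that depth. Beside the siLuc DMSO gaps 0 of 54 such rows were at 0.

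The elements with the lowest ratios for siLuc DAC over siLuc DMSO were such gaps. An adjacent pair of MER96 elements held 352 and 323 reads in siLuc DMSO, 0 and 0 under siLuc DAC, and 244 and 229 under siStau1 DAC. Against a floor of 3 reads in the library at 0, they were at least 113-fold and 104-fold lower under siLuc DAC than under siLuc DMSO. A MER63C element of the Blackjack superfamily held 247, 0 and 336 reads, and the AluSz and MIR rows on either side of it held 1 read each under siLuc DAC against 284 and 1475 in siLuc DMSO. A MER20 element with 176, 0 and 260 reads lay between FRAM and AluSq rows that were both at 0 under siLuc DAC, and a MER1B element held 123, 0 and 283 reads. Without the elements at 0 reads under siLuc DAC, a check added after the data were seen, the hAT median between the DAC libraries was -0.21 in place of -0.18.

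The elements with the highest ratios for siLuc DAC over siLuc DMSO were copies without a read in siLuc DMSO. They were a Cheshire element with 0, 100 and 16 reads in that library order (siLuc DMSO first), a MER58B element with 0, 71 and 4, and a Charlie17 element with 0, 70 and 4. At the same floor these were at least 34.6-fold, 24.5-fold and 24.2-fold higher under siLuc DAC than under siLuc DMSO. The highest for siStau1 DAC over siLuc DMSO were a MER103C element (0, 30 and 58 reads), a MER5B element (0, 16 and 48) and a Charlie1a element (0, 36 and 46). The lowest in that pair, a MamTip2b, a MER5A1 and a MER3 element, held only 28, 23 and 22 reads in siLuc DMSO and 0 under siStau1 DAC. Between the DAC libraries the lowest were a Zaphod3, a MER63C and a Charlie10 element, with 60, 56 and 54 reads under siLuc DAC and 0 under siStau1 DAC.

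Several human genes derive from hAT transposases, and 17 of them were looked up in total RNA, a list fixed with earlier results of these data known. For siLuc DAC over siLuc DMSO, 14 of the 17 were tested in the authors' deposited table and 0 were called at a q-value under 0.05 (4 at an unadjusted p-value under 0.05: ZBED8, ZBED9, GTF2IRD2B and THAP12), where 13.5% of all genes tested were called. For siStau1 DAC over siStau1 DMSO the authors' deposited table called 1 of 14, against 7.46% of all genes tested. It was KIAA1586, a gene with similarity to hAT transposases, which fell from 13.7 FPKM with DMSO to 3.25 with DAC (q = 0.00162 in the authors' deposited table). With siLuc the authors' deposited table lists it at 7.07 FPKM with DMSO and 2.87 with DAC, with q = 0.316. The authors' deposited table called 0 of 13 for siStau1 DMSO over siLuc DMSO and 0 of 14 for siStau1 DAC over siLuc DAC (1 each at an unadjusted p-value under 0.05, KIAA1586 and ZNF862), where 0.799% and 0.904% of all genes tested were called.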

How the data were processed

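J2 RNA was measured in 3 libraries and total RNA in 4 groups of 2. Per the submitters' processing notes the build was hg38 and the tools included HISAT2 2.1.0, featureCounts and Cuffdiff 2.2.1, with the role of each not stated. The deposited tables of 5622516 repeat elements hold for siLuc DMSO whole-number counts plus 1. For the other libraries they hold a signal, the count plus 1 times a factor that the authors applied (1.92 for siLuc DAC, 1.27 for siStau1 DAC). Dividing by each column's minimum and subtracting 1 gave whole reads for 100% of values within 1e-06. How reads with several matches were placed is not given in the sources used here. For total RNA the authors deposited 1 FPKM value, p-value and q-value per group or comparison and no value per library, so their calls at a q-value under 0.05 were used. The deposited fold changes, kept in the file as a score, were not printed. Ratios of FPKM were taken with a pseudocount of 0.1.

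Depth was 68944777 to 83037330 reads on repeats. Elements were compared with at least 20 reads in a pair, families with at least 100, and 0.5 reads were added for elements. No test between J2 libraries was possible. The families named were the 10 with most reads, the 3 highest and 3 lowest per pair and the top family per superfamily. Elements were named as the top 3 per library and the 3 highest and lowest per pair, and others are marked. Members and lists were chosen with earlier results of these data known. Scripts (Python 3.11.15, pandas 2.3.3, NumPy 2.4.6, SciPy 1.17.1) were tested on simulated data. Alternatives changed the denominator, the minimum of reads and the strongest elements.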

Additional observations from a re-analysis of the deposited data

How the results depend on the processing

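No paired analysis was possible because each J2 group has 1 library and the total RNA table gives no value per library, for which reason no replicate could be left out either. The median log2 ratio of hAT elements in siLuc DAC over siLuc DMSO (0.72) was 1.61 with the authors' factors, 0.40 scaled to repeats outside Alu, 0.22 scaled to LINE, LTR, MIR and DNA elements, 0.85 with at least 10 reads and 0.55 with at least 50. In siStau1 DAC over siLuc DMSO (0.49) it was 1.05, 0.37, 0.11, 0.52 and 0.41 in the same order. In siStau1 DAC over siLuc DAC (-0.18) it was -0.51, 0.024, -0.065, -0.27 and -0.12, and -0.21 without elements at 0 reads in siLuc DAC, with a change of sign outside Alu. Of the 9552 elements beyond 2-fold up in siLuc DAC over siLuc DMSO, the count became 16033 with the authors' factors, 17118 with at least 10 reads and 3427 with at least 50. The 1702 beyond 2-fold down became 668 with the authors' factors, 2575 outside Alu, 3292 with LINE, LTR, MIR and DNA scaling, 3743 with 10 reads and 510 with 50. For siStau1 DAC over siLuc DMSO the 6708 up became 11760 with the authors' factors, 4256 with LINE, LTR, MIR and DNA scaling, 12388 with 10 reads and 2426 with 50. The 982 down there became 327, 2064, 2723 and 181 under those settings. Between the DAC libraries the 3329 up became 6792 and 1067, and the 5874 down 11832 and 1767, with at least 10 and 50 reads. The 23 families higher in siStau1 DAC over siLuc DAC became 7 with the authors' factors, 63 outside Alu and 50 with LINE, LTR, MIR and DNA scaling. The hAT shares of 1.464%, 2.244% and 2.057% became 3.44%, 4.22% and 4.47% outside Alu, 78.5%, 70.5% and 74.6% of DNA transposons, 8.37%, 9.09% and 9.05% of LINE, LTR, MIR and DNA reads, and 1.41%, 2.17% and 1.97% without the 10 strongest elements. Summed superfamily ratios changed sign for hAT-Tip100 in siLuc DAC over siLuc DMSO (-0.082) and for elements labelled only hAT (-0.034), both with LINE, LTR, MIR and DNA scaling. Between the DAC libraries they did so outside Alu for hAT-Charlie (0.064), hAT-Tip100 (0.18), hAT-Blackjack (0.063) and hAT-Ac (0.17), and with LINE, LTR, MIR and DNA scaling for hAT-Tip100 (0.094) and hAT-Ac (0.079). For elements labelled only hAT they did so with the authors' factors (-0.23) and without their 10 strongest elements (-0.036). Scaled to DNA transposons, the ratios for siLuc DAC over siLuc DMSO changed sign for hAT-Charlie (-0.13), hAT-Tip100 (-0.36), hAT-Blackjack (-0.18), hAT-Ac (-0.096), hAT (-0.31) and hAT-Tip100? (-0.075). For siStau1 DAC over siLuc DMSO they did so for hAT-Charlie (-0.069), hAT-Tip100 (-0.17), hAT-Blackjack (-0.12), hAT (-0.012) and hAT-Tip100? (-0.11), and between the DAC libraries for hAT-Charlie (0.062), hAT-Tip100 (0.18), hAT-Blackjack (0.062) and hAT-Ac (0.17). Another 86 superfamily values moved without a change of sign. The counts at other minimums differ because more or fewer elements are compared. The cause of the other shifts was not tested. Scalings with LINE, LTR, MIR and DNA elements, the superfamily ratios scaled to DNA transposons and the setting without siLuc DAC zeros were chosen after seeing the data. With 1 library per group, no setting speaks to the spread between cultures.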

Other observations

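From the authors' deposited table, the median log2 ratio of the tested genes of the list derived from hAT transposases was -0.13 for siLuc DAC over siLuc DMSO, beside 0.23 over all genes tested. Of the 14 genes, 7 lay above 0 and 7 below. The median was -0.37 beside 0.11 for siStau1 DAC over siStau1 DMSO in the authors' deposited table, with 5 above and 9 below. Between the siRNAs the list's median from the authors' deposited table lay on the other side of that of all genes: 0.34 beside -0.020 for siStau1 DMSO over siLuc DMSO (10 above, 3 below) and 0.26 beside -0.14 for siStau1 DAC over siLuc DAC (9 above, 5 below). The comparisons share groups and are not independent. Of the 4 genes at an unadjusted p-value under 0.05 for siLuc DAC over siLuc DMSO, the authors' deposited table lists THAP12, a zinc finger gene, at 35.1 FPKM with DMSO and 19.6 with DAC (q = 0.202) and ZBED8 at 2.42 and 0.956 (q = 0.178). In the other direction the authors' deposited table lists ZBED9 at 0.00950 and 0.664 FPKM (q = 0.213) and GTF2IRD2B at 1.30 and 3.79 (q = 0.266). ZBED1 is listed at 0 in each group of the authors' deposited table. It lies in a region that the X and Y chromosomes share, and how reads were divided between its copies is not given in the sources used here.

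The 524 elements of the class DNA?/hAT, which the rule for hAT left out, held 1046 reads in siLuc DMSO, 1573 under siLuc DAC and 1860 under siStau1 DAC.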
